A study of Homo sapiens with 12 samples.

Results

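The mitotic spindle and kinetochore genes described here are 46 genes of the human cell division machinery, followed library by library in BJ-5ta fibroblasts with and without the LEO1 gene, in full and in low serum. They were given as a list of gene symbols, chosen with earlier results of these data known. The shares of all genes set beside their counts are therefore descriptions and no independent test of the list. Each of the 46 symbols matched exactly 1 Ensembl identifier among the 60671 genes of the count table, and all 46 passed the filter of more than 1 CPM (the usual unit of counts scaled to the library's total gene count) in at least 3 libraries, which left 13236 genes for testing. The list holds CDK1 with cyclin B and their regulators (5 genes), the transcription factor FOXM1, 2 genes that act with the anaphase-promoting complex, 7 mitotic kinases and spindle checkpoint genes, 4 genes of the chromosomal passenger complex, 8 centromere and kinetochore genes, 9 kinesins, 7 proteins of spindle microtubules and poles, 2 regulators of cytokinesis, and TOP2A.

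As background, CDK1 bound to cyclin B drives entry into mitosis. Spindle microtubules then capture chromosomes at their kinetochores, protein assemblies built on the centromere, and the spindle checkpoint holds back the anaphase-promoting complex until all chromosomes are attached. CDC20 activates that complex, which marks cyclin B and securin for destruction, and the cell divides. Most of these genes are transcribed in G2 and M phase and are low in G0, the resting state that fibroblasts enter when serum is withdrawn. Their levels are therefore commonly read as a sign of how many cells in a culture are dividing. In RNA from a whole culture, fewer dividing cells and less RNA of the gene per cell cannot be told apart.

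Many promoters of such genes carry a CHR element, a site bound by the DREAM complex in resting cells and by the MuvB complex with B-MYB and FOXM1 in dividing cells, together with CCAAT boxes, which bind NF-Y. The promoter table of RefSeq (GRCh38.p14), which covers 250 bases before to 50 bases after a transcription start, held 41 promoters of 38 of the 46 genes, with more than 1 promoter for 3 of them. The letters searched were TTTGAA or, on the other strand, TTCAAA for the CHR element, and CCAAT or ATTGG for the CCAAT box. In 1 of the 41 promoters the motifs shared a base. The CHR letters were in 31 of the 41 promoters (75.6%), against 15.2% of all 35116 promoters of the table and 10.5% of the 14898 promoters of tested genes. In the last 100 bases of the window they were in 58.5% of the members' promoters and in 4.62% of all promoters. A CCAAT box was in 78% of the members' promoters and in 34.6% of all promoters, and 51.2% of the members' promoters held at least 2, against 10.8%. CENPE, CKAP2 and KIF2C held neither motif, which says only that these letters were not in this window. These shares are descriptions, with no test.

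The 6 stretches below were chosen after the values were seen, to show how the motifs lie in genes of different roles (cyclin B2, an activator of the anaphase-promoting complex, a kinase, a kinesin, a spindle pole protein and a kinetochore motor). Each runs 5′ to 3′ on the strand of the gene, from 150 bases before to 20 bases after the start, and capitals mark CHR elements and CCAAT boxes.
CCNB2 (chr15:59104996-59105165, plus strand): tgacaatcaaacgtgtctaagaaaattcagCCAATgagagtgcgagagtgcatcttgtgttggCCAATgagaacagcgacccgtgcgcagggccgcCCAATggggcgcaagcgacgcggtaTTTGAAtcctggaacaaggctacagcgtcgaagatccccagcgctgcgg
CDC20 (chr1:43358831-43359000, plus strand): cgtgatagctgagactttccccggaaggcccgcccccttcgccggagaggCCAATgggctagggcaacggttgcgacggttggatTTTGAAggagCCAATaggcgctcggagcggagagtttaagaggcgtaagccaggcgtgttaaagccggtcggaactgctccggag
PLK1 (chr16:23678739-23678908, plus strand): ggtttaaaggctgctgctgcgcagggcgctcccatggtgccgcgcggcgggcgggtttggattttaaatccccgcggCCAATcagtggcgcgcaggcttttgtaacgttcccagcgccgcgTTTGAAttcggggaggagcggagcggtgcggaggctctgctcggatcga
KIF11 (chr10:92592980-92593149, plus strand): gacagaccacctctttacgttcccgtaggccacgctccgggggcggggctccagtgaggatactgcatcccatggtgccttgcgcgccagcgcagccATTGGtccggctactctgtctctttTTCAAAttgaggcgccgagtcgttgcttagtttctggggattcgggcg
ASPM (chr1:197146650-197146819, minus strand): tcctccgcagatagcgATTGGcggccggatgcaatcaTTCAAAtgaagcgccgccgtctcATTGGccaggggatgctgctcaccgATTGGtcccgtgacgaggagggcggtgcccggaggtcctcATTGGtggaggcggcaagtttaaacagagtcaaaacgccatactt
CENPE (chr4:103198324-103198493, minus strand): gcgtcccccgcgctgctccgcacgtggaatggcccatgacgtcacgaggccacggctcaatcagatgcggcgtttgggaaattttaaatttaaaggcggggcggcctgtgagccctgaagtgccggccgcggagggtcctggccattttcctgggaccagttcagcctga
In CCNB2, PLK1 and KIF11 the first base of the CHR letters lay 29, 29 and 28 bases before the start. In CDC20 it lay 65 bases and in ASPM 113 bases before the start, and the CENPE stretch held neither motif.

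BJ-5ta is a line of human foreskin fibroblasts immortalized with telomerase. RNA was measured in wild-type cells and in the ΔLEO1 knockout, which is 1 clone grown from a single cell after cutting with guides to exons 1 and 2 of LEO1, a subunit of the PAF1 complex that travels with RNA polymerase II. Both were cultured in RPMI with 10% serum (FBS), or for 10 days in 0.1% serum. There were 3 libraries in every one of the 4 groups, made from poly(A) RNA and numbered 1 to 3 (wild type, 10%), 4 to 6 (ΔLEO1, 10%), 7 to 9 (wild type, 0.1%) and 10 to 12 (ΔLEO1, 0.1%), with ERCC spike-in transcripts in every sample. Neither the labels nor the study's methods say that the libraries of a group came from separate cultures, so p-values measure the spread between these libraries, which may be technical. Gene counts ran from 26240632 to 45315560 per library, and the 46 genes took 20453 to 107751 of them. The ERCC share ran from 0.625% in library 4 to 3.24% in library 11, and its 95% interval (Wilson, for counting error only) spanned at most 0.0120 percentage points. The LEO1 count was 682 to 1001 in the wild-type libraries and 23 to 55 in the ΔLEO1 libraries (log2 fold change -4.02 in 10% and -4.32 in 0.1% serum, edgeR adjusted p = 2.16e-11 and 1.43e-12). Of the fibroblast markers 9 of 9 passed the filter, with a summed level of 68514 to 99549 CPM, while 0 of 5 epithelial, 0 of 4 endothelial and 0 of 4 neural or glial markers passed. Of 5 leukocyte markers 2 passed (PTPRC and CD68). The summed leukocyte level was 0.823 to 1.94 CPM in wild type and 1.87 to 7.91 CPM in ΔLEO1, and CD3E and LYZ did not exceed 0.0575 CPM in any library.

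In every group the library with the highest number stood apart from the other two. A chi-square comparison gave 2.75 to 10.3 per gene for the lower-numbered pairs (1 and 2, 4 and 5, 7 and 8, 10 and 11) and 54.7 to 118 per gene for the pairs that included library 3, 6, 9 or 12. The mitotic genes moved as a block with this difference. The summed level of the 46 genes was 1900 and 1965 CPM in libraries 1 and 2 and 577 CPM in library 3. In the ΔLEO1 clone in 10% serum it was 2142 and 2378 CPM in libraries 4 and 5 and 1234 CPM in library 6. In 0.1% serum the order was turned: wild type had 834 and 779 CPM in libraries 7 and 8 and 1428 CPM in library 9, and ΔLEO1 had 1182 and 1167 CPM in libraries 10 and 11 and 1663 CPM in library 12.

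Gene by gene, all 46 genes had fewer CPM in library 3 than in libraries 1 and 2, with a median ratio of 0.292 to the mean of these, against a median log2 ratio of -0.02 over all tested genes, of which 46.6% were below both libraries. KNL1 was the lowest (log2 ratio -2.27) and ECT2 the highest (log2 ratio -0.82). All 46 were also below both other libraries in library 6, at a median ratio of 0.551, where 47.2% of all genes were. In library 9 all 46 were above libraries 7 and 8, at a median ratio of 1.84, where 42.5% of all genes were above both. In library 12 they were above both in 39 cases and below both in 1 case (CKS2), with a median ratio of 1.35, and 51.6% of all genes were above both. In CPM, library 3 lay below all 3 wild-type libraries in 0.1% serum for 41 of the 46 genes, which held for 47% of all genes. Libraries 1 and 2 lay above all 3 of them for 42 genes (25% of all genes), so the 10% group held both the highest and the lowest wild-type levels of most of these genes. What sets these 4 libraries apart is not given in the labels, and its part in the results was not tested. The counts of calls and the medians of the 46 genes are therefore given with and without them.

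**Figure D1:**
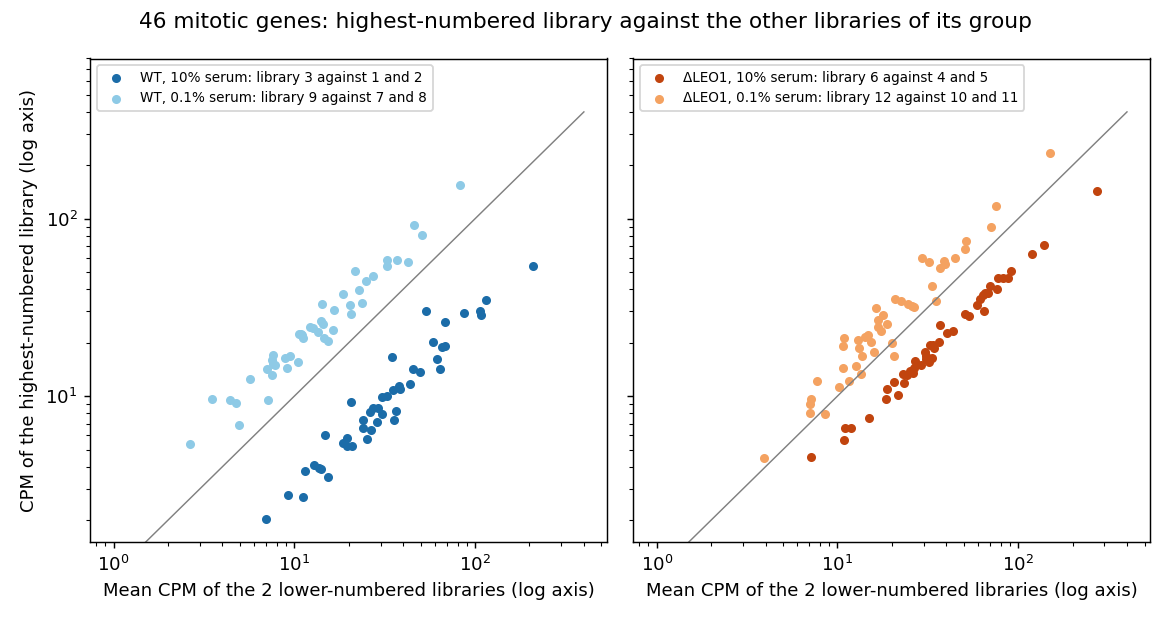
Each point is 1 of the 46 mitotic genes. The x axis is the mean CPM of the 2 lower-numbered libraries of a group and the y axis the CPM of its highest-numbered library, both on log axes, with wild type on the left and ΔLEO1 on the right. The 10% serum points lie below the line of equality (all 46 in both genotypes), and the wild-type 0.1% serum points lie above it (all 46).

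Levels below are ERCC-scaled counts unless CPM is named. An ERCC-scaled count is calculated like CPM, but on the ERCC counts of the library, adjusted by a TMM factor, in place of its gene counts. It follows the amount of the gene's RNA relative to the spike-in. CPM follows the amount of the gene's RNA relative to the other genes. A gene was called when its Benjamini-Hochberg adjusted p over the 13236 genes was under 0.05 in edgeR's likelihood ratio test with ERCC scaling.

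**Figure D2:**
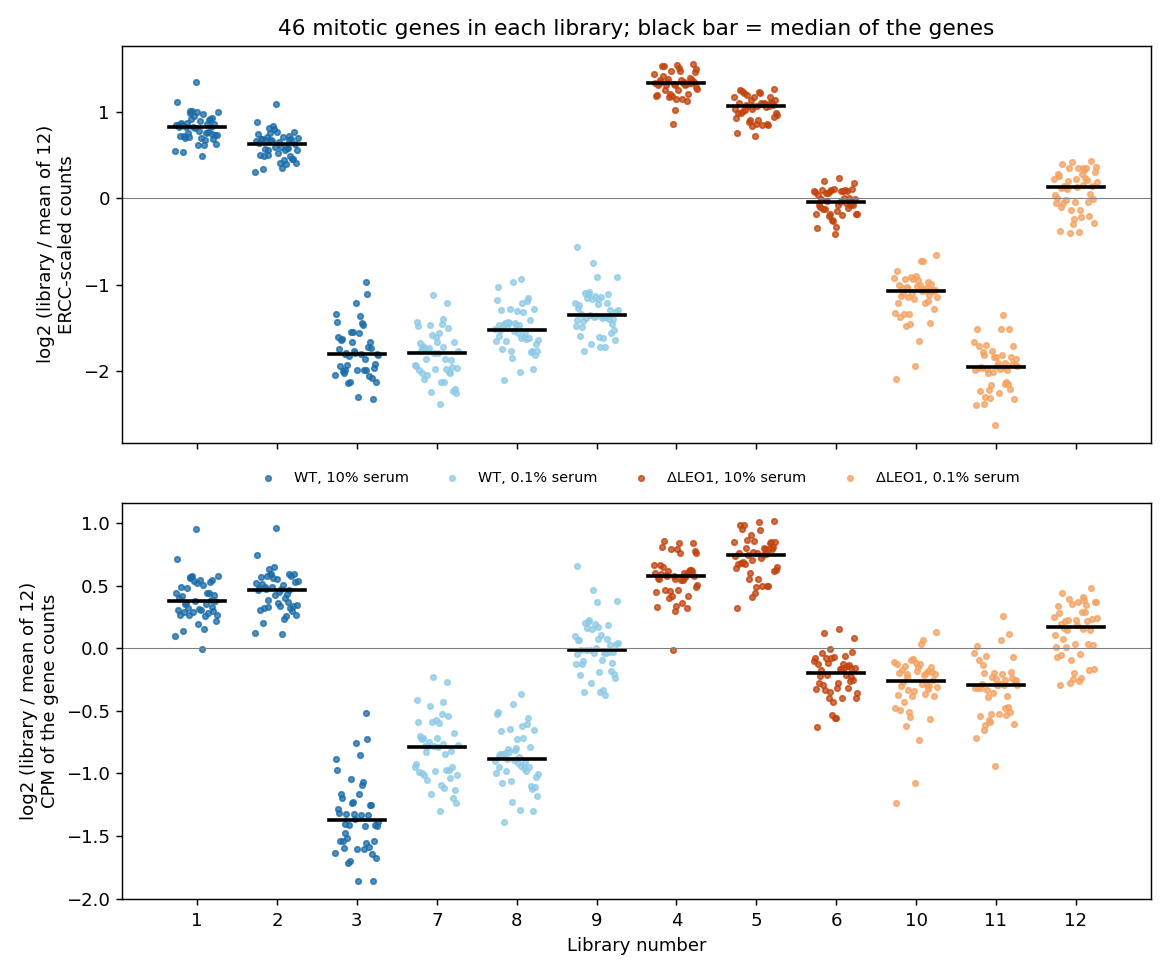
Each point is 1 of the 46 mitotic genes in 1 library, as the log2 ratio to the mean of that gene over the 12 libraries, on the ERCC scale (top) and in CPM (bottom). Black bars are medians over the genes, from -1.96 (library 11) to 1.33 (library 4) on the ERCC scale and from -1.37 (library 3) to 0.75 (library 5) in CPM. Library 3 lies far below libraries 1 and 2 on both scales.

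The first comparison asks what low serum did to these genes in wild-type cells. All 46 were lower in 0.1% than in 10% serum and all 46 were called, against 36.1% of all tested genes called lower. Their median log2 fold change was -1.78, or 3.45-fold lower, and that of all tested genes was -0.97, or 1.96-fold lower. Each of the 46 lay below the median of all genes. The values ran from -2.24 for ASPM (4.73-fold lower) to -1.18 for CKS2 (2.27-fold lower), with standard errors of 0.44 to 0.50. The quasi-likelihood test called 45 of the 46, all but CKS2, against 27% of all genes called lower, and DESeq2 with ERCC size factors called 33, against 40.3%. On the ERCC scale the 3 libraries of one group did not overlap with the 3 of the other for 6 of the 46 genes (AURKA, INCENP, KIF18A, KIF23, ASPM and ECT2), while 53.4% of all tested genes were lower without overlap. Libraries 1 and 2 were above all 3 libraries of the 0.1% group for all 46 genes (89.6% of all genes), while library 3 was below the highest of these for 40 of the 46 (46.1% of all genes). In CPM the groups overlapped for all 46 genes, and 18.6% of all genes were lower without overlap.

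With library scaling on the genes (TMM), which asks for change relative to the other genes, 5 of the 46 were called lower in wild type, against 16.6% of all genes. All 46 still had a negative log2 fold change, with a median of -0.62. Without the highest-numbered library of each group, and with TMM on the genes, all 46 were called lower, against 30.8% of all genes, with a median of -1.38. With ERCC scaling and without these libraries all 46 were also called, but so were 72.4% of all genes. The median of the 46 was then -2.39, against -1.03 for all tested genes. With the lower-numbered pair of each group summed as 1 library, 1 of the 46 was called, against 4.24% of all genes. Leaving out library 1 left 18 of the 46 called, against 8.94% of all genes, and leaving out library 7 left 24, against 8.64%.

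The same comparison was made in the ΔLEO1 clone. All 46 were lower in 0.1% serum, and 45 were called, against 47.2% of all tested genes called lower. Their median log2 fold change was -1.64, or 3.11-fold lower, against -1.05, or 2.07-fold lower, for all tested genes, and each of the 46 lay below that median. The values ran from -2.31 for KIF18A (4.96-fold lower) to -1.08 for KIF15, the 1 gene that was not called (adjusted p = 0.0545). The quasi-likelihood test also called 45, against 36.4% of all genes, and DESeq2 called 25, against 51.8%. The groups did not overlap on the ERCC scale for 14 genes, against 50.9% of all genes, and in CPM for 7 genes (CDKN3, CDC20, PLK1, AURKA, MAD2L1, KIF18A and PRC1), against 15.8% of all genes. Libraries 10 and 11 were below all 3 libraries of the 10% group for all 46 genes on the ERCC scale (90.2% of all genes), and library 12 was above library 6 for 32 of them (44.6% of all genes). TMM on the genes called 5 of the 46 (12.9% of all genes), and without the highest-numbered libraries it called all 46 (28.4% of all genes) with a median of -0.94. With ERCC scaling and without these libraries all 46 were called too, where 93.1% of all genes were. The median of the 46 was then -2.64, against -1.72 for all tested genes. With the lower-numbered pairs summed, 0 were called in ΔLEO1, where 1.23% of all genes were, although all 46 were lower at an unadjusted p under 0.05 in the edgeR test of 3 against 3 libraries, as were 61.4% of all genes. Leaving out library 4, 10 or 11 left 9, 8 or 22 of the 46 called, against 5.98%, 4.86% and 8.3% of all genes.

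**Figure D3:**
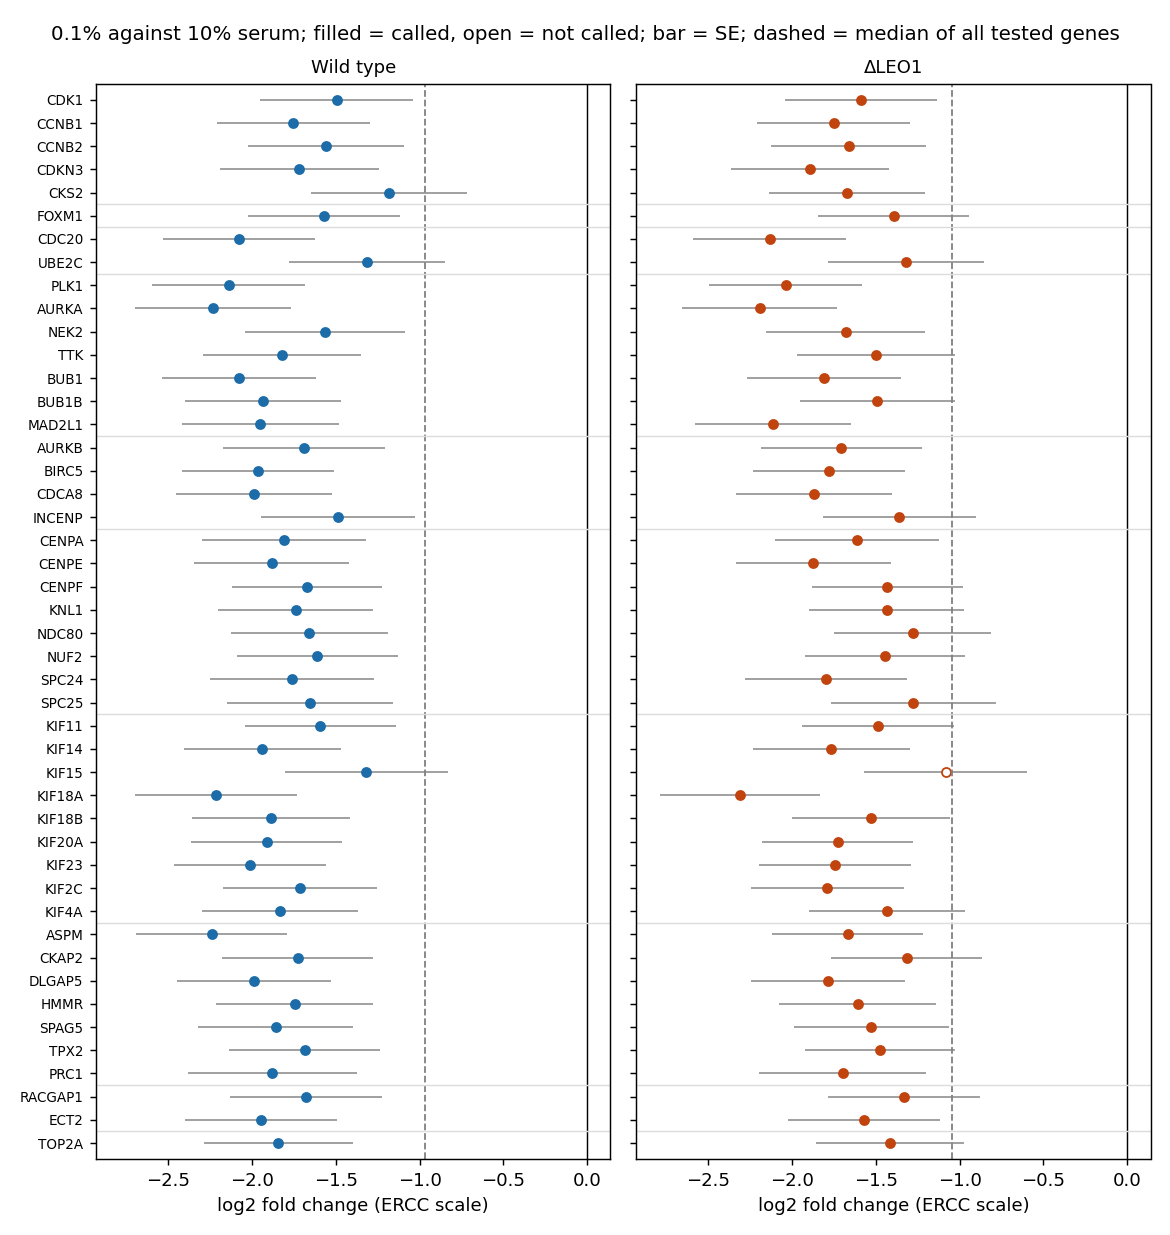
The log2 fold change of each of the 46 genes in 0.1% against 10% serum on the ERCC scale, with its standard error as a bar, in wild type (left) and ΔLEO1 (right), ordered by role. Filled points were called. The dashed lines are the medians of all tested genes (-0.97 and -1.05), and every gene lies to the left of them.

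Among the regulators of mitotic entry, all 5 genes of CDK1, cyclin B and their partners fell in both genotypes. CDK1, the kinase that starts mitosis (chromosome 10, 60778331 to 60794852, plus strand), had 4764, 4030 and 788 in wild-type libraries 1 to 3 and 855, 1138 and 1404 in libraries 7 to 9. Library 3 was below all 3 libraries in low serum. In ΔLEO1 the CDK1 values were 8812, 7375 and 3461 in libraries 4 to 6 and 1719, 1027 and 3793 in libraries 10 to 12, and library 12 was above library 6. The log2 fold change was -1.49 ± 0.46 (SE) in wild type (adjusted p = 0.0101) and -1.59 ± 0.46 in ΔLEO1 (adjusted p = 0.00781). CCNB1, which encodes cyclin B1 (chromosome 5, 69167010 to 69178245, plus strand), had 5528, 4931 and 994 in wild type in 10% serum and 932, 1253 and 1211 in 0.1% serum. For ΔLEO1 the values were 7833, 6118 and 3069 in 10% serum and 1401, 791 and 2870 in 0.1% serum, without overlap. Cyclin B1 had a log2 fold change of -1.75 ± 0.46 in both genotypes. CKS2, a small subunit that binds CDK1 (chromosome 9, 89311198 to 89316703, plus strand), was the least reduced of the 46 in wild type. Its values there were 2482, 2242 and 645 in 10% serum and 643, 924 and 795 in 0.1% serum, so library 3 was about as low as library 7. In ΔLEO1 the CKS2 values were 4563, 3790 and 1861 against 1066, 619 and 1521, without overlap. Its log2 fold change was -1.18 ± 0.47 in wild type (adjusted p = 0.0398) and -1.67 ± 0.47 in ΔLEO1 (adjusted p = 0.00629). With TMM on the genes the wild-type value was -0.08, and -0.59 without the highest-numbered libraries. Per kilobase of exon CKS2 had the highest level of the 46 in wild type in 10% serum, at 27.4 ± 10.7 CPM per kilobase (SD, n = 3). CCNB2 (cyclin B2) and CDKN3, a phosphatase that acts on CDK1, had log2 fold changes of -1.56 and -1.72 in wild type and of -1.66 and -1.89 in ΔLEO1.

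FOXM1, a forkhead factor that binds many promoters of this kind in G2 (chromosome 12, 2857681 to 2877155, minus strand), fell in both genotypes. It had 8159, 6913 and 1320 in wild type in 10% serum and 1536, 1959 and 2024 in 0.1% serum. In ΔLEO1 it had 10060, 7843 and 4030 against 2217, 1096 and 5037, so library 12 was above library 6. The log2 fold change was -1.57 ± 0.45 in wild type and -1.39 ± 0.45 in ΔLEO1. Exons of FOXM1 overlap with those of ITFG2 on the opposite strand by 781 bases, and the strand setting of the counting is not given in the sources used here.

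Both genes of the anaphase-promoting complex's activation fell. CDC20, its activator and the target of the spindle checkpoint (chromosome 1, 43358955 to 43363203, plus strand), had 5933, 5494 and 944 in wild type in 10% serum and 773, 1012 and 1143 in 0.1% serum. The ΔLEO1 values of CDC20 were 9819, 8545 and 4040 against 1467, 714 and 2924, without overlap, and they did not overlap in CPM either. The CDC20 log2 fold change was -2.08 ± 0.46 in wild type and -2.14 ± 0.45 in ΔLEO1. UBE2C, the ubiquitin-conjugating enzyme that works with the complex (chromosome 20, 45812576 to 45816957, plus strand), changed less. It had 3260, 3019 and 595 against 650, 885 and 1226 in wild type, where library 3 was below all 3 libraries in low serum. ΔLEO1 had 4139, 3045 and 1422 against 1007, 633 and 1804. Its log2 fold change was -1.31 ± 0.47 in wild type (adjusted p = 0.0247) and -1.32 ± 0.47 in ΔLEO1 (adjusted p = 0.0228).

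All 7 mitotic kinases and checkpoint genes fell in both genotypes, with a median of -1.95 in wild type and -1.81 in ΔLEO1. PLK1, the polo-like kinase of centrosome maturation and chromosome segregation (chromosome 16, 23677656 to 23690367, plus strand), had 5234, 4797 and 817 in wild type in 10% serum and 758, 752 and 952 in 0.1% serum. In ΔLEO1 it had 9322, 7509 and 3729 against 1277, 620 and 3117, without overlap. Its exons overlap by 553 bases with a gene on the opposite strand. PLK1 stood at a log2 fold change of -2.14 ± 0.46 in wild type (adjusted p = 0.000193) and -2.04 ± 0.46 in ΔLEO1 (adjusted p = 0.000578). BUB1, a checkpoint kinase at the kinetochore (chromosome 2, 110637698 to 110678114, minus strand), had 4795, 4070 and 758 against 690, 733 and 855 in wild type. Its ΔLEO1 values were 6365, 5467 and 2457 against 930, 547 and 2608, so the single library 12 overlapped. BUB1 had a log2 fold change of -2.08 ± 0.46 in wild type and -1.81 ± 0.46 in ΔLEO1. AURKA, the spindle pole kinase aurora A, had log2 fold changes of -2.23 in wild type and -2.19 in ΔLEO1, without overlap of the groups in either genotype. NEK2, which separates centrosomes, had the smallest change of the group in wild type (-1.56), and BUB1B, which encodes the checkpoint protein BUBR1, in ΔLEO1 (-1.49). TTK, the kinase MPS1, was at -1.82 in wild type, and MAD2L1, which encodes the CDC20 inhibitor MAD2, was at -1.95 in wild type and -2.12 in ΔLEO1. Exons of BUB1B overlap by 457 bases with a gene on the same strand, BUB1B-PAK6, where the assignment of reads is uncertain.

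The chromosomal passenger complex corrects faulty attachments and guides cytokinesis, and all 4 of its genes fell. BIRC5, which encodes survivin (chromosome 17, 78214186 to 78225636, plus strand), had 7419, 6679 and 1127 against 1104, 1320 and 1476 in wild type. The ΔLEO1 libraries had 9562, 8049 and 3188 against 2011, 947 and 3109, without overlap but with libraries 6 and 12 close together. BIRC5 had a log2 fold change of -1.96 ± 0.45 in wild type and -1.78 ± 0.45 in ΔLEO1. INCENP, the scaffold of the complex (chromosome 11, 62123973 to 62153163, plus strand), had 4242, 3738 and 1160 against 1075, 1097 and 1082 in wild type. These groups did not overlap, but library 3 was only just above the libraries in low serum. The ΔLEO1 values of INCENP were 5468, 4549 and 2646 against 1186, 573 and 3184. Its log2 fold change was -1.49 ± 0.46 in wild type and -1.36 ± 0.46 in ΔLEO1. AURKB, the kinase of the complex, had log2 fold changes of -1.69 and -1.71, and CDCA8, which encodes borealin, of -1.99 and -1.87.

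At the centromere and kinetochore all 8 genes fell in both genotypes, with medians of -1.71 and -1.44. CENPF, a large kinetochore protein that accumulates in G2 (chromosome 1, 214603195 to 214664588, plus strand), had 13428, 11436 and 2000 against 2481, 2929 and 3024 in wild type. Library 3 was again below all 3 libraries in 0.1% serum. CENPF had in ΔLEO1 21588, 16345 and 7479 against 3801, 2367 and 10683, so library 12 exceeded library 6. CENPF changed by a log2 fold of -1.67 ± 0.45 in wild type and -1.43 ± 0.45 in ΔLEO1. KNL1, the platform for checkpoint proteins in the outer kinetochore (chromosome 15, 40594020 to 40664342, plus strand), had 4432, 3762 and 510 against 811, 917 and 876 in wild type. Its ΔLEO1 values were 5167, 4192 and 1968 against 880, 478 and 2837. KNL1 had a log2 fold change of -1.74 ± 0.46 and -1.44 ± 0.46. CENPE, a kinesin that carries chromosomes to the spindle equator (chromosome 4, 103105806 to 103198409, minus strand), had 4356, 3719 and 749 against 744, 887 and 761 in wild type. In ΔLEO1 it had 4575, 3842 and 1780 against 472, 385 and 1935. The values of CENPE in libraries 10 and 11 were thus below those in libraries 7 and 8. CENPE had a log2 fold change of -1.88 ± 0.46 in wild type and -1.87 ± 0.46 in ΔLEO1. NDC80, NUF2, SPC24 and SPC25 encode the NDC80 complex, which binds microtubule ends. Their log2 fold changes ran from -1.76 (SPC24) to -1.61 (NUF2) in wild type and from -1.80 (SPC24) to -1.28 (NDC80 and SPC25) in ΔLEO1. CENPA, the histone H3 variant that marks centromeres, had values of -1.81 and -1.61, and its exons overlap by 138 bases with SLC35F6 on the same strand.

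All 9 kinesins fell in both genotypes, with medians of -1.89 in wild type and -1.73 in ΔLEO1. In wild type all 9 were called lower, and in ΔLEO1 8 were, all but KIF15. KIF11, the motor that pushes spindle poles apart (chromosome 10, 92593286 to 92655395, plus strand), had 8453, 7256 and 1334 against 1612, 1855 and 2181 in wild type. Its ΔLEO1 values were 12935, 11006 and 4854 against 2565, 1566 and 6147. KIF11 had a log2 fold change of -1.59 ± 0.45 and -1.49 ± 0.45. KIF20A, a kinesin of the central spindle (chromosome 5, 138178719 to 138187715, plus strand), had 7996, 6822 and 989 against 1054, 1260 and 1881 in wild type and 14570, 10487 and 5321 against 2379, 1312 and 5481 in ΔLEO1. Library 3 was below all low-serum libraries of wild type, and library 12 was barely above library 6. Its log2 fold change was -1.91 ± 0.45 and -1.73 ± 0.45. KIF18A, which dampens chromosome movements at the plate (chromosome 11, 28020620 to 28108308, minus strand), was the most reduced gene in ΔLEO1 and did not overlap between serum levels in either genotype. It had 1995, 1435 and 418 against 206, 267 and 354 in wild type and 3066, 2536 and 1267 against 344, 226 and 820 in ΔLEO1. KIF18A stood at a log2 fold change of -2.21 ± 0.48 (adjusted p = 0.000266) and -2.31 ± 0.48 (adjusted p = 0.000193). KIF15, a motor that can share the work of KIF11 (chromosome 3, 44761717 to 44873376, plus strand), was at the other end. It had 1469, 1480 and 283 against 380, 423 and 491 in wild type and 1497, 1471 and 693 against 386, 243 and 1105 in ΔLEO1. Library 12 lay between libraries 6 and 5, and the log2 fold change was -1.32 ± 0.49 in wild type (adjusted p = 0.0304) and -1.08 ± 0.49 in ΔLEO1. KIF2C, which depolymerizes microtubules at kinetochores (chromosome 1, 44739818 to 44767767, plus strand), had 3997, 3497 and 693 against 679, 828 and 987 in wild type. Its ΔLEO1 values were 7992, 6527 and 2967 against 1348, 711 and 3004, and its log2 fold change was -1.71 ± 0.46 and -1.79 ± 0.46. KIF14 and KIF23, which act in cytokinesis, KIF18B, which shortens astral microtubules, and KIF4A, which acts on chromosome arms and the central spindle, had values from -2.01 (KIF23) to -1.83 (KIF4A) in wild type and from -1.77 (KIF14) to -1.43 (KIF4A) in ΔLEO1.

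The 7 proteins of spindle microtubules and poles fell in both genotypes, with medians of -1.86 and -1.61. ASPM, a spindle pole protein (chromosome 1, 197084128 to 197146694, minus strand), was the most reduced gene in wild type. It had 14375, 12032 and 2429 against 1857, 2046 and 2195, so even library 3 was above the libraries in low serum. In ΔLEO1 it had 11426, 9317 and 4222 against 1474, 918 and 5466. ASPM stood at a log2 fold change of -2.24 ± 0.45 in wild type (adjusted p = 7.1e-05, 95% interval -3.12 to -1.36) and -1.67 ± 0.45 in ΔLEO1 (adjusted p = 0.00488). TPX2, which activates aurora A on the spindle (chromosome 20, 31739271 to 31801805, plus strand), had 12985, 11688 and 2107 against 2186, 2701 and 3434 in wild type. Its ΔLEO1 values were 17437, 14843 and 6707 against 3824, 2086 and 8121, and its log2 fold change was -1.69 ± 0.45 and -1.47 ± 0.45. CKAP2, a microtubule stabilizer (chromosome 13, 52455429 to 52476628, plus strand), had 10970, 9136 and 2032 against 2131, 2409 and 2138 in wild type. ΔLEO1 had 12441, 10060 and 4915 against 2655, 1589 and 6784, with a log2 fold change of -1.73 ± 0.45 and -1.31 ± 0.45. DLGAP5, HMMR and SPAG5, which help to build and anchor the spindle, had log2 fold changes of -1.99, -1.75 and -1.86 in wild type and of -1.79, -1.61 and -1.53 in ΔLEO1. Exons of SPAG5 overlap by 485 bases with another gene on the same strand. PRC1, which bundles microtubules of the central spindle, had values of -1.88 and -1.70, but its exons overlap by 3181 bases with another gene on the same strand, so its low level (0.963 CPM per kilobase, the lowest of the 46) is uncertain.

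The 2 cytokinesis regulators and TOP2A followed. RACGAP1, a subunit of centralspindlin (chromosome 12, 49976923 to 50033136, minus strand), had 7046, 6446 and 1394 against 1394, 1490 and 1762 in wild type and 9811, 7704 and 3916 against 2138, 1098 and 5271 in ΔLEO1. Library 3 had the same rounded value as library 7, and the log2 fold change was -1.68 ± 0.45 and -1.33 ± 0.45. ECT2, which activates RhoA for the cleavage furrow (chromosome 3, 172750682 to 172821474, plus strand), had 6966, 5425 and 2096 against 1128, 1389 and 1246 in wild type, without overlap. It was the gene least lowered in library 3. ECT2 had in ΔLEO1 10166, 8725 and 4379 against 1767, 929 and 5140, and its log2 fold change was -1.94 ± 0.45 and -1.57 ± 0.45. TOP2A, the topoisomerase that untangles sister chromatids (chromosome 17, 40388516 to 40417950, minus strand), had the most counts of the 46. It had 26558, 21754 and 3742 against 4077, 4658 and 5778 in wild type and 40806, 33963 and 15124 against 7976, 4422 and 21306 in ΔLEO1. Library 12 was above library 6 here too, and the log2 fold change was -1.84 ± 0.44 in wild type and -1.42 ± 0.44 in ΔLEO1.

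The size of the reduction was set beside the CHR letters, as a description with no test. In wild type the 24 genes with the CHR letters in the last 100 bases had a median log2 fold change of -1.82 and the 14 genes without them one of -1.80. In ΔLEO1 the medians were -1.58 and -1.75. The 8 genes with no entry in the promoter table had medians of -1.71 and -1.46. Without the highest-numbered libraries the medians with and without the CHR letters were -2.45 and -2.39 in wild type and -2.61 and -2.75 in ΔLEO1.

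The second question is whether the clone without LEO1 differed from wild type at the same serum level. In 10% serum 0 of the 46 genes were called, against 8.84% of all tested genes, with an unadjusted p under 0.05 for 6 genes (CDK1, CKS2, PLK1, KIF20A, KIF2C and HMMR), each higher in ΔLEO1, where 10.2% of all genes were higher at that p. The quasi-likelihood test (8.01% of all genes) and DESeq2 (8.89%) also called 0, and so did TMM on the genes, where 39.5% of all genes were called. The median log2 fold change of the 46 was 0.64, against 0.35 for all tested genes, and 45 of the 46 were positive. KIF2C had the largest value (1.10, 95% interval 0.20 to 1.99, adjusted p = 0.146). ASPM was the only negative one (-0.21, interval -1.09 to 0.68, adjusted p = 0.823). Every one of the 46 overlapped between the genotypes on both scales, while on the ERCC scale 23.7% of all genes were higher and 6.94% lower without overlap, and in CPM 29.8% and 29.6%. In libraries 4 and 5 the ERCC-scaled level was above both libraries 1 and 2 for 36 genes and below both for 1 gene, against 41.4% and 17% of all genes. In CPM these counts were 31 and 5, against 43.6% and 41.6% of all genes. Leaving out library 3 gave the 46 a median of 0.16 on the ERCC scale, against 0.14 for all tested genes. Of the 46 values 12 were then negative, and 21 lay below the median of all genes. Leaving out library 1 instead gave a median of 1.03, against 0.58 for all tested genes. The summed level of the leukocyte markers was also higher in ΔLEO1, as given above, and their part in the genotype values was not tested.

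In 0.1% serum 0 of the 46 were called as well, against 7.43% of all tested genes, and the quasi-likelihood test (6.91% of all genes), DESeq2 (7.16%) and TMM on the genes (33%) called 0. All 46 had positive values, with a median of 0.76 against 0.27 for all tested genes, and 45 lay above the latter. At an unadjusted p under 0.05 there were 14 of the 46, each higher in ΔLEO1, where 8.7% of all genes were higher. TOP2A had the largest value (1.22, interval 0.34 to 2.09, adjusted p = 0.0854) and CENPE the smallest (0.22, interval -0.69 to 1.13, adjusted p = 0.888). ASPM was at 0.36 (interval -0.52 to 1.25). On the ERCC scale 0 of the 46 were without overlap, against 4.64% of all genes higher and 4.83% lower. In CPM 2 genes were higher in ΔLEO1 without overlap, CDCA8 and NUF2, against 19.7% of all genes, and 0 were lower, against 21.8%. CDCA8 had 8.62, 9.57 and 14.4 CPM in wild type and 16.8, 15.0 and 17.7 CPM in ΔLEO1. NUF2 had 7.04, 7.28 and 9.52 CPM in wild type and 12.5, 14.3 and 13.3 CPM in ΔLEO1. Both had their highest wild-type value in library 9.

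The difference in 0.1% serum was not carried evenly by the ΔLEO1 libraries. Libraries 10 and 11 were both above libraries 7 and 8 for 1 gene and both below for 2 genes on the ERCC scale (5.05% and 41% of all genes). Library 12, with the highest levels, had the lowest ERCC share of the 6 libraries in 0.1% serum (1.09%). Without library 12 the median of the 46 was 0.07, against -0.27 for all tested genes. Without library 11 it was 1.13, against 0.58 for all tested genes, with 20 of the 46 called and 13.1% of all genes. In CPM, libraries 10 and 11 were above libraries 7 and 8 for 41 of the 46 genes, against 34.6% of all genes. They were below for 2 of the 46, against 41% of all genes. These 2 were ASPM and CENPE. ASPM had 39.7 and 33.9 CPM in libraries 7 and 8 and 28.0 and 30.6 CPM in libraries 10 and 11. CENPE had 15.9 and 14.7 CPM there against 8.97 and 12.8 CPM. In libraries 9 and 12 the ASPM level was 58.9 and 60.3 CPM and the CENPE level 20.4 and 21.3 CPM, so these genes did not keep that order in the highest-numbered libraries.

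Leaving out the highest-numbered libraries and scaling on the genes, an alternative added after the data were seen, gave calls where the 12 libraries gave none. In 0.1% serum 41 genes were then called higher and 2 lower (ASPM and CENPE) in ΔLEO1, against 31.1% and 29.8% of all genes, with a median log2 fold change of 0.62 over the 46. Not called were INCENP, KNL1 and KIF15. In 10% serum 24 were called higher and 1 lower (ASPM), against 31% and 32.6% of all genes, with a median of 0.23. ASPM stood at -0.60 there and KIF2C at 0.70. These fits rest on the 2 libraries of each group that were most alike, and 63.5% of all genes were called in 10% serum and 60.9% in 0.1% serum. With ERCC scaling and the same libraries 0 of the 46 were called in either serum level, against 13.5% and 18.4% of all genes, with medians of 0.48 and 0.21.

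**Figure D4:**
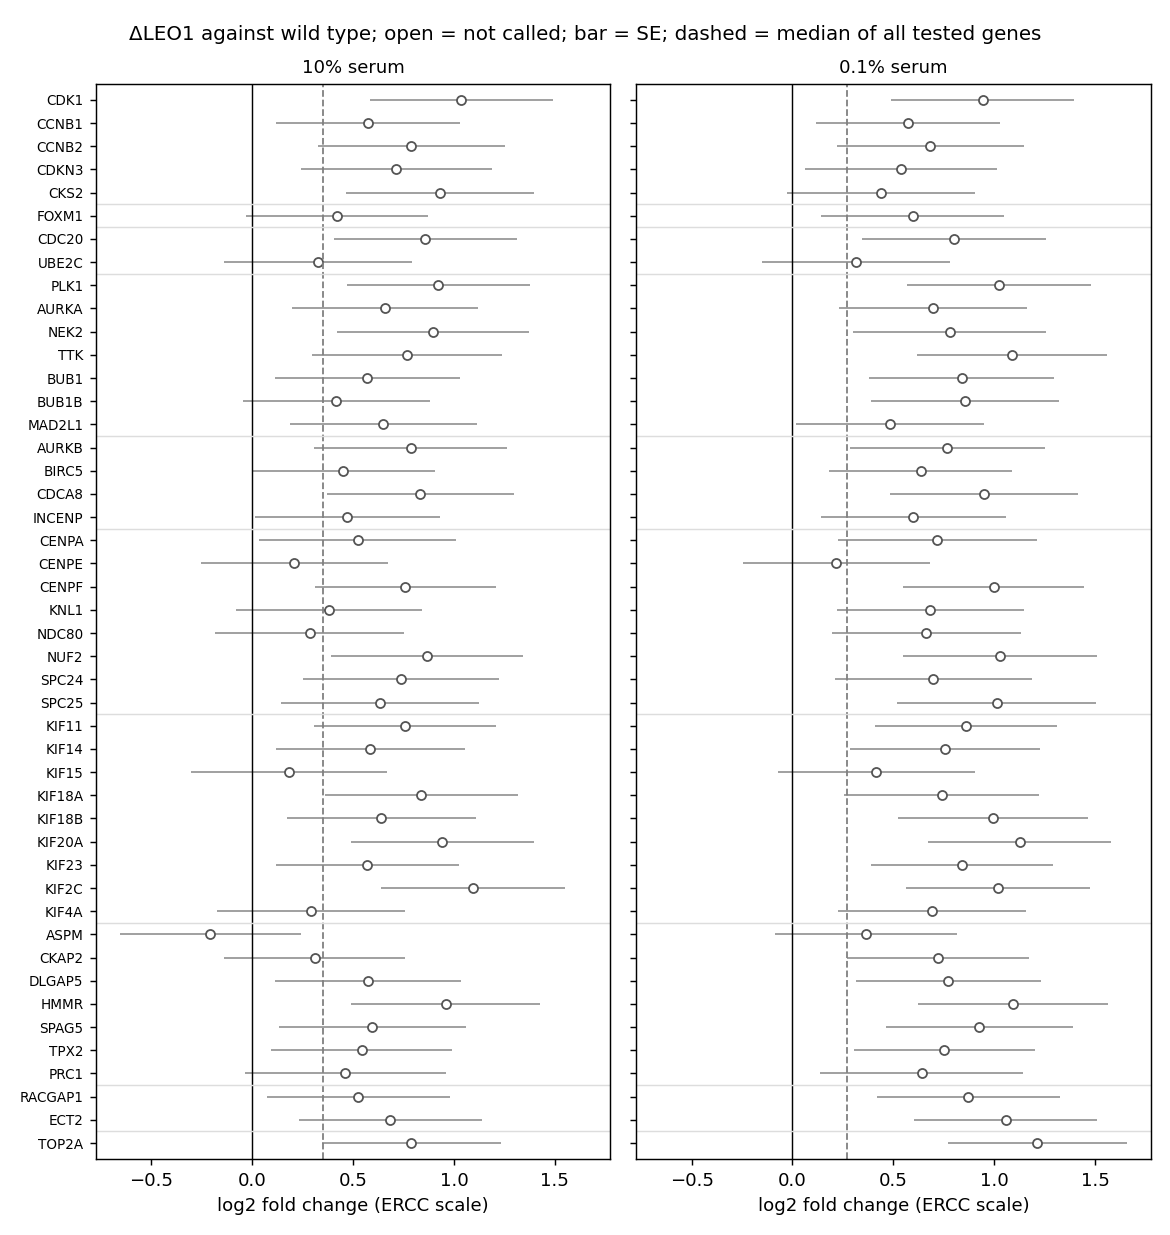
The log2 fold change of each of the 46 genes in ΔLEO1 against wild type on the ERCC scale, with its standard error as a bar, in 10% serum (left) and 0.1% serum (right). No gene was called. The dashed lines are the medians of all tested genes (0.35 and 0.27). ASPM in 10% serum is the only point below 0.

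The interaction asks whether the response to low serum differed between the genotypes. For 0 of the 46 genes was the difference of the responses called, against 0.219% of all tested genes, and 0 had an unadjusted p under 0.05, where 2.49% of all genes did. The quasi-likelihood test (0.174% of all genes) and DESeq2 (0.136%) called 0 too. The values ran from -0.49 for CKS2 to 0.57 for ASPM, with standard errors of 0.63 to 0.71. The 95% interval was -0.68 to 1.82 for ASPM and -1.78 to 0.80 for CKS2, so differences within these intervals remain compatible with the data. The median was 0.18, against -0.07 for all tested genes, and it turned to -0.58 without library 12. With TMM on the genes and without the highest-numbered libraries 27 of the 46 were called, each with a smaller reduction in ΔLEO1, against 17.5% of all genes called in that direction. With ERCC scaling and the same libraries left out 0 of the 46 were called, against 0.883% of all genes. Of the 46 values 43 were then negative, a larger reduction in ΔLEO1, with a median of -0.30 against -0.67 for all tested genes.

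Of 98 other genes of mitosis, grouped by hand and chosen with earlier results known, 96 were tested. In wild type 61 were called lower in 0.1% serum and 0 higher, against 36.1% of all genes called lower. In ΔLEO1 69 were called lower and 0 higher, against 47.2% of all genes called lower. The median log2 fold changes of the list were -1.31 and -1.25, against -0.97 and -1.05 for all tested genes. Without the highest-numbered libraries 89 and 95 of the 96 were called lower, where 72.4% and 93.1% of all genes were. With TMM on the genes 11 were called lower and 4 higher in wild type, against 16.6% and 16% of all genes. In ΔLEO1 7 were called lower and 2 higher under that scaling, against 12.9% and 16.5% of all genes. The lowest values were those of MYBL2, which encodes the B-MYB partner of FOXM1, in wild type (-2.49) and of CCNF, which encodes cyclin F, in ΔLEO1 (-2.29). The highest were those of CIT, a kinase of cytokinesis, in wild type (-0.35, adjusted p = 0.486) and of CENPP, an inner centromere protein, in ΔLEO1 (0.16, adjusted p = 0.770). For the next counts the shares of all genes called lower are again 36.1% in wild type and 47.2% in ΔLEO1. The genes of mitotic entry were called lower in 11 of 13 cases in wild type and 12 of 13 in ΔLEO1. Those of condensin were called lower in 6 and 7 of 8 cases, and those of cytokinesis in 3 of 4 in both. The subunits and conjugating enzymes of the anaphase-promoting complex were called lower in 6 and 11 of 16 cases. Their medians were -1.02 and -1.17, close to the medians of all genes. The inner centromere proteins were called lower in 11 and 10 of 15 cases. Genes of spindle assembly were called lower in 9 and 10 of 19 cases, with medians of -1.09 and -1.17, also close to those of all genes. Those of the MIS12 and SKA complexes were called lower in 5 and 4 of 7, with medians of -1.23 and -1.21. Those of cohesin and its release were called lower in 6 and 7 of 9, and further checkpoint genes in 4 and 5 of 5. In the genotype comparisons 0 of the 96 were called in 10% serum, against 8.84% of all genes. In 0.1% serum 1 was, MYBL2, against 7.43% of all genes. It was higher in ΔLEO1 (log2 fold change 1.37, adjusted p = 0.0442), a call that the quasi-likelihood test did not make. With TMM on the genes 5 were lower and 5 higher in ΔLEO1 in 10% serum (39.5% of all genes called), and 4 lower and 6 higher in 0.1% serum (33%). Without the highest-numbered libraries 2 were higher in 10% serum (13.5% of all genes called), and 3 were lower and 1 higher in 0.1% serum (18.4%). The median of the 96 in 0.1% serum was 0.52, and it turned to -0.21 without these libraries.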

How the data were processed

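The authors sequenced poly(A) RNA with a stranded kit, aligned the reads to GRCh38 and deposited raw read counts per Ensembl gene and ERCC transcript in the 12 libraries. The submitters' processing notes name STAR 2.7.10a and featureCounts 1.5.1, while the strand setting and annotation release are not given in the sources used here. The ERCC mix was added to each sample, and the RNA input of each library is not given. From these counts, edgeR 4.0.16 (R 4.3.3) was fitted to all 4 groups with the ERCC totals, adjusted by TMM, as library sizes. Genes with more than 1 CPM in at least 3 libraries were kept, and the likelihood ratio test was used with Benjamini-Hochberg adjusted p under 0.05. Intervals are 95% intervals from the standard error. Alternatives were the quasi-likelihood test, DESeq2 1.42.0, scaling on the genes, other filters and left-out libraries. The scripts were tested on simulated data with independent libraries. These did not imitate the close pairs or the libraries that stood apart, so that test cannot show how calls behave with them. The 46 genes and the list of other mitotic genes were chosen with earlier results of these data known. Genes given with library values were the 2 with the highest mean CPM in each role, the lowest and highest fold change of each comparison, and any gene not called between serum levels. Gene positions are those of GENCODE 29, and promoters are from RefSeq.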

Additional observations from a re-analysis of the deposited data

How the results depend on the processing

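The median log2 fold changes of the 46 members kept their sign under every alternative run, except that of the interaction. Members called lower in wild-type low serum numbered 46, against 36.1% of all genes. With TMM or with DESeq2 size factors on the genes they numbered 5 (16.6% and 16.4% of all genes). With the lower-numbered pairs summed 1 was called (4.24%). With 1 library left out 18 to 46 were called, the 18 without library 1 (8.94%). In ΔLEO1 they numbered 45 (47.2% of all genes), and 25 with DESeq2 on ERCC size factors (51.8%). With TMM or with DESeq2 size factors on the genes they numbered 5 (12.9% of all genes with either). With the pairs summed 0 were called (1.23%), and at an adjusted p under 0.01 in the likelihood ratio test 26 were (9.61%). With 1 library left out 8 to 46 were called, the 8 without library 10 (4.86%). Between genotypes 0 were called, against 8.84% of all genes in 10% serum and 7.43% in 0.1% serum. In 10% serum 2 were called from the 6 libraries compared, against 13.1% of all genes. With TMM on the genes without the highest-numbered libraries 25 were called (63.5% of all genes). With 1 library left out 0 to 2 were called, 1 without library 11 (12.4% of all genes) and 2 without library 12 (14.3%). In 0.1% serum 43 were called with TMM on the genes without the highest-numbered libraries (60.9% of all genes). With 1 library left out 0 to 20 were called, the 20 without library 11 (13.1% of all genes). The interaction had 27 calls with TMM on the genes without the highest-numbered libraries, where 27.5% of all genes were called. The interaction median turned negative without library 1 (-0.21), 2 (-0.066), 6 (-0.11) or 12 (-0.58) and without the highest-numbered libraries (-0.30), with a range of -0.58 to 0.64. Less the median of all genes, it was -0.011 with DESeq2 size factors and -0.0071 with TMM on the genes. The genotype value of ASPM turned to 0.21 and 0.11 in 10% serum without library 1 or 6. In 0.1% serum it turned to -0.15 and -0.16 with DESeq2 size factors and TMM on the genes, -0.77 without library 12, -0.71 without the highest-numbered libraries and -0.28 with TMM on the genes without these. For CENPE the same settings gave -0.24, -0.24, -0.90, -0.93 and -0.44 in 0.1% serum. In 10% serum CENPE turned to -0.028 and -0.044 with scaling on the genes, -0.25 without library 3, -0.06 without library 4 and -0.19 with TMM on the genes without the highest-numbered libraries. With 1 library left out, ASPM ranged from -0.67 to 0.21 in 10% and from -0.77 to 0.77 in 0.1% serum, and CENPE from -0.25 to 0.61 and from -0.90 to 0.59. The causes of these changes between settings were not tested. No paired analysis was possible because the library numbers run from 1 to 12 over the groups and none occurs in 2 of them. With 3 libraries a group, log2 differences of up to 1.22 between genotypes (TOP2A) did not pass the threshold.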
